A study of Mus musculus with 12 samples.

Results

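The genes described here encode the proteins of the cytosolic ribosome. They were chosen by name alone: symbols that start with Rpl or Rps and a digit, plus Rplp0, Rplp1, Rplp2 and Rpsa, without pseudogene symbols (marked -ps), the Rps6 kinases and Rps19bp1, and with a mean deposited level of at least 8. Of 41444 genes in the table, 91 carried such a name and 82 of these also met the limit on the level; 11536 genes in all were tested. All libraries came from mouse pre-B cells of bone marrow with the genotype Ctnnb1 fl/fl, transformed with the BCR-ABL1 oncogene in culture after growth in IL-7, a model of B cell acute lymphoblastic leukemia (B-ALL). The cells carried the ERT2 vector, which has no Cre, so that Ctnnb1, which encodes β-catenin, should be intact, and both groups received 4-OHT (4-hydroxytamoxifen, 1 µM) for 2 days. The ERT2 group (3 libraries, here C1, C2 and C3) received nothing more, and no vehicle is named for it. The LY2090314 group (3 libraries, T1, T2 and T3) also received 40 nM LY2090314, for 1 day by the labels. The paper names a shorter exposure for this experiment. LY2090314 inhibits GSK3, the kinase that marks β-catenin for degradation, and the comparison asks how the leukemia cells' mRNAs differ when that kinase is inhibited. The study also sequenced cells with Cre-ERT2, which are not analysed here.

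The cytosolic ribosome has a small subunit, which reads the mRNA, and a large subunit, which joins amino acids, and nearly every protein in it is present in a single copy. Cells therefore keep the mRNAs of these proteins at similar and very high levels. Most of these mRNAs begin with a C followed by a run of pyrimidines, the 5′ terminal oligopyrimidine (TOP) tract, through which mTORC1 and LARP1 set how strongly they are translated. Ribosomal proteins that are made in excess are degraded, and free Rpl5 and Rpl11, bound to 5S rRNA, inhibit Mdm2 and thereby stabilize p53. Heterozygous loss of several of them causes Diamond-Blackfan anemia, and a few are mutated in leukemia.

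The levels are the authors' rlog values, regularized log2 counts in which a difference of 1 is a doubling, and they do not give the depth of each library. 1 library of each group, C3 and T3, stood apart for the ribosomal protein genes. Relative to the mean of the ERT2 group, the median of the 82 genes was shifted by −0.08 in C1, −0.03 in C2 and 0.11 in C3, and by 0.04 in T1, 0.07 in T2 and 0.45 in T3 (log2). T3 was the highest LY2090314 library for 81 of the 82 genes, and C3 the highest ERT2 library for 77. The genes held 6.97, 7.14 and 7.62% of the summed linear level of all genes in C1, C2 and C3, and 7.64, 7.77 and 9.35% in T1, T2 and T3. The shift went along with other abundant transcripts. The median of the 13 mRNAs encoded by mitochondrial DNA was at −0.62, −0.55 and −0.02 in T1, T2 and T3, and that of 18 further TOP mRNAs was at −0.11, −0.08 and 0.19. For the 7197 other genes with a mean of at least 8, the median was between −0.03 and −0.02 in each LY2090314 library. What sets T3 apart was not tested, and the values of the members that moved most are also given without it. T1 and T2 share a number in the table and differed from one another less (SD of the difference over all genes 0.186, log2) than T3 did from either (0.253 in both cases). C1 and C2, whose numbers differ, were as close (0.185), and C3 differed from C1 by 0.239 and from C2 by 0.222. The paper describes the replicates of this experiment as separate mice, whereas the labels tie no library to a mouse. Where T1 and T2 share a source, the p-values measure in part a technical spread. In bulk libraries fewer cells of a type and less RNA per cell cannot be told apart.

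**Figure D1:**
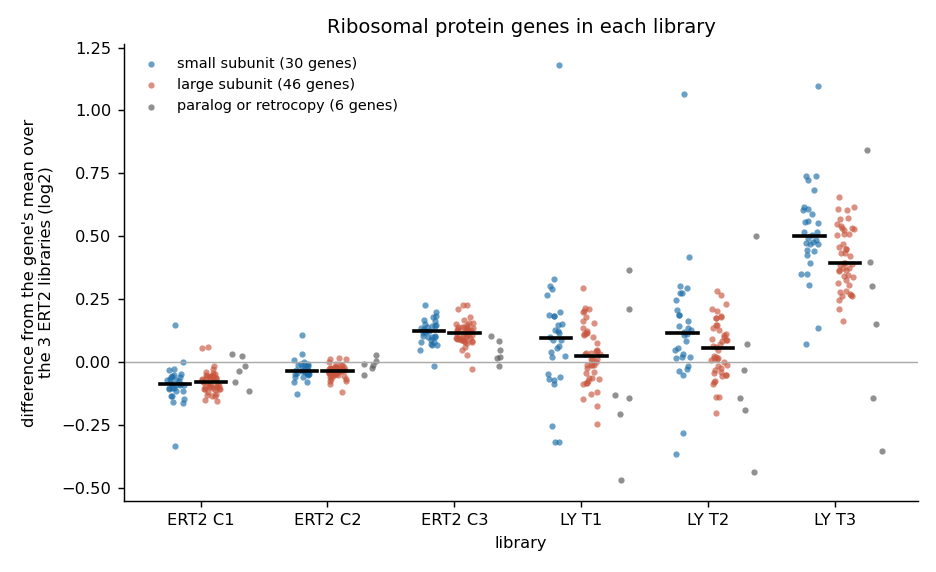
Each point is 1 of the 82 ribosomal protein genes in 1 library, plotted on the y axis as its difference from that gene's mean over the 3 ERT2 libraries (log2), for the small subunit, the large subunit and the paralogs or retrocopies; horizontal bars are the medians of the subunits. The bars of T1 and T2 lie between 0.02 and 0.12, those of T3 at 0.50 for the small and 0.39 for the large subunit.

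The median of the 82 ribosomal protein mRNAs was slightly higher in the LY2090314 group, less so without T3, and 16 genes passed the test. In T1 (0.04) and T2 (0.07) the median shift lay within the range of the ERT2 libraries (−0.08 to 0.11, log2). Only T3 (0.45) lay above that range. The median difference of the 82 genes was 0.19 (log2), a fold of 1.14, against 0.01 over all 11536 genes; it was 0.05 without T3. The difference was positive for 74 genes and negative for 8. By limma with Benjamini-Hochberg adjustment, 14 genes rose, 2 fell and 66 did not pass an adjusted p of 0.05. Of all genes tested, 50.1% passed, 24.8% as higher and 25.3% as lower, and 55.5% of those with a mean of at least 8 passed. The LY2090314 libraries lay entirely above the ERT2 libraries for 24 of the genes and entirely below for 2, against 29.1% and 29.5% of all genes. Of the 66 that did not pass, 60 had a positive and 6 a negative difference. The 95% interval of the difference stayed within 1.5-fold in either direction for 62 of these 66, and reached past it for Rpl27a, Rps7, Rpl10 and Rplp0.

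The number of calls depended on single libraries. It was 5 without C1, 6 without C2 and 20 without T3, of which 15 were higher and 5 lower. The median SD of a gene over the 3 libraries was 0.104 (log2) in the ERT2 and 0.229 in the LY2090314 group. T3 alone lay above every ERT2 library for 46 of the 82 genes, while T1 and T2 did not. Rps27, Rps24, Rps27l and Rpl7l1 passed under the reported fit and each of 16 alternatives at the same threshold. Rps27rt, a copy of Rps27, also passed in each of these except where copies were summed with their parent, which merges it into Rps27. With libraries centred on the members, a further alternative, Rpl7l1 no longer passed (limma adjusted p = 0.0658).

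**Figure D2:**
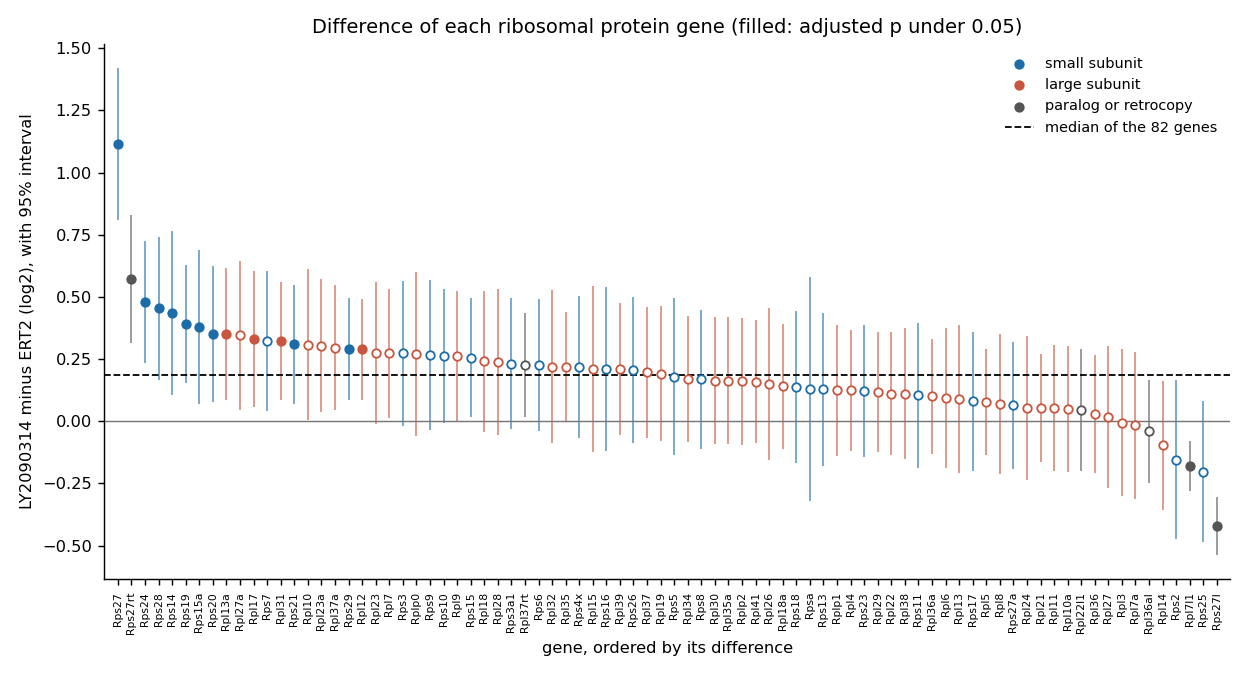
The difference between LY2090314 and ERT2 (log2, y axis) is shown for each of the 82 genes on the x axis, with its 95% interval from limma; filled points passed an adjusted p of 0.05, colors mark the subunit, and the dashed line is the median, 0.19. Rps27 stands alone at 1.11, and Rps27l and Rpl7l1 are the filled points below 0.

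The small subunit was shifted further than the large subunit in each LY2090314 library. Among 30 small subunit genes 9 rose and none fell, with a median difference of 0.23 (log2). Among 46 large subunit genes 4 rose and none fell, with a median of 0.16. Over all genes tested, 24.8% passed as higher and 25.3% as lower. The median of the small minus that of the large subunit lay between −0.01 and 0.01 in the ERT2 libraries and was 0.07, 0.06 and 0.11 in T1, T2 and T3. The gap thus lay above all ERT2 libraries in each LY2090314 library, T3 included, although the overall shift of T3 was several times that of T1 and T2. These values are a description without a test, since genes are not replicates.

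The largest rise was that of Rps27, which encodes a zinc-finger protein of the small subunit (ENSMUSG00000090733, GRCm38 chromosome 3, 90212522 to 90213651, minus strand). Its level was 9.39, 9.83 and 9.94 in C1, C2 and C3 and 10.90, 10.78 and 10.81 in T1, T2 and T3. The groups did not overlap, T3 was not the highest of its group, and C1 was the lowest library. The difference was 1.11 ± 0.13 (log2, SE, limma adjusted p = 0.000276), a fold of 2.16, and 1.12 without T3. Rps27rt, an intronless copy of Rps27 on chromosome 9 (114982366 to 114982739, minus strand), was at 12.70, 12.66 and 12.66 in C1 to C3 and at 13.04, 13.17 and 13.52 in T1 to T3. Its difference was 0.57 ± 0.11 (adjusted p = 0.00367), and here T3 was the highest library; without it the difference was 0.43.

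Rps24, Rps28 and Rps14 followed, each a small subunit protein. Rps24 (chromosome 14, 24487125 to 24496959, plus strand), a gene mutated in Diamond-Blackfan anemia, was at 13.93, 13.89 and 13.98 in C1 to C3 and 14.24, 14.35 and 14.66 in T1 to T3 (difference 0.48 ± 0.11, adjusted p = 0.0066). All LY2090314 libraries of Rps24 lay above the ERT2 libraries by more than the ERT2 libraries differed, and the difference was 0.36 without T3. Rps28 was at 12.69, 12.76 and 12.94 against 13.13, 13.09 and 13.53 (0.45 ± 0.12, adjusted p = 0.017). Rps14, which is lost in a form of myelodysplastic syndrome, was at 14.09, 14.24 and 14.43 against 14.52, 14.56 and 14.99 (0.44 ± 0.14, adjusted p = 0.0342). For Rps28 and Rps14 the groups did not overlap either, but the calls were lost without C1 and without C2. Without T3 both passed, at 0.31 and 0.28. The 9 other genes that rose were Rps15a, Rps19, Rps20, Rps21 and Rps29 of the small and Rpl12, Rpl13a, Rpl17 and Rpl31 of the large subunit, with differences from 0.29 to 0.39. Their calls were lost without C1, and without C2 as well except for Rps19; that of Rpl12 was also lost without T3. Rps19, the gene most often mutated in Diamond-Blackfan anemia, was at 13.82, 13.92 and 14.03 against 14.21, 14.19 and 14.53.

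The 2 genes that fell are paralogs, not the main genes of their families. Rps27l (ENSMUSG00000036781, chromosome 9, 66946086 to 66949516, plus strand), a p53 target that can replace Rps27 in the ribosome, was at 11.20, 11.22 and 11.28 in C1 to C3 and 10.76, 10.79 and 10.88 in T1 to T3. The difference was −0.42 ± 0.05 (adjusted p = 0.0003), and both groups were tight. Rpl7l1 (chromosome 17, 46773907 to 46782672, minus strand), a relative of Rpl7 found in precursors of the large subunit, was at 11.02, 11.05 and 11.06 against 10.83, 10.85 and 10.90 (−0.18 ± 0.04, adjusted p = 0.00974). In both genes T3 was the highest LY2090314 library and still lay below each ERT2 library; without T3 the differences were −0.45 and −0.20.

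To set aside the shift shared by the whole group, the median of the 82 genes in each library was subtracted from all values and the fit repeated. This removed most of the spread: the median SD of a gene fell to 0.047 (log2) in the ERT2 and 0.035 in the LY2090314 group. It also moved the median difference of all genes tested from 0.01 to −0.18. After subtraction 45 of the 82 differences lay within 0.1 of 0 and 69 within 0.2. 3 genes lay above the group's median and 4 below it past an adjusted p of 0.05, where 7.44% of all genes passed as higher and 22.6% as lower. Without overlap between groups, 21 genes lay above and 25 below, against 9.13% and 36% of all genes. Rps27 (0.92 ± 0.17, adjusted p = 0.000434), Rps27rt (0.38 ± 0.12, adjusted p = 0.0213) and Rps24 (0.28 ± 0.10, adjusted p = 0.0356) rose relative to the other ribosomal protein genes. Rps27l (−0.62 ± 0.14, adjusted p = 0.00341), Rps25 (−0.40 ± 0.14, adjusted p = 0.043), Rps2 (−0.35 ± 0.07, adjusted p = 0.00163) and Rpl14 (−0.29 ± 0.10, adjusted p = 0.0279) fell relative to them.

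Rps2, Rps25 and Rpl14 had not passed without the subtraction, and their values show how T3 bears on the call. Rps2, which sits at the mRNA entry channel, was at 15.75, 15.82 and 16.00 in C1 to C3 and 15.54, 15.58 and 15.99 in T1 to T3. T1 and T2 lay below every ERT2 library and T3 within their range. Rps25, which is needed by several viral internal ribosome entry sites, was at 10.44, 10.62 and 10.70 against 10.27, 10.22 and 10.66. Rpl14, of the large subunit, was at 14.02, 14.07 and 14.19 against 13.85, 13.89 and 14.26. Relative to the library's median each of the 3 genes was lower in all LY2090314 libraries than in any ERT2 library. The count of 7 became 3 without C2, C3 or T2, 4 without T1, 5 without C1 and 8 without T3; Rps27, Rps27l and Rps2 were among the genes called in each of these, and the first 2 of them passed in each of 14 alternatives. Rps2 did not pass after quantile normalization, where its value was −0.14 (limma adjusted p = 0.261), or without the mean-variance trend (adjusted p = 0.0857).

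**Figure D3:**
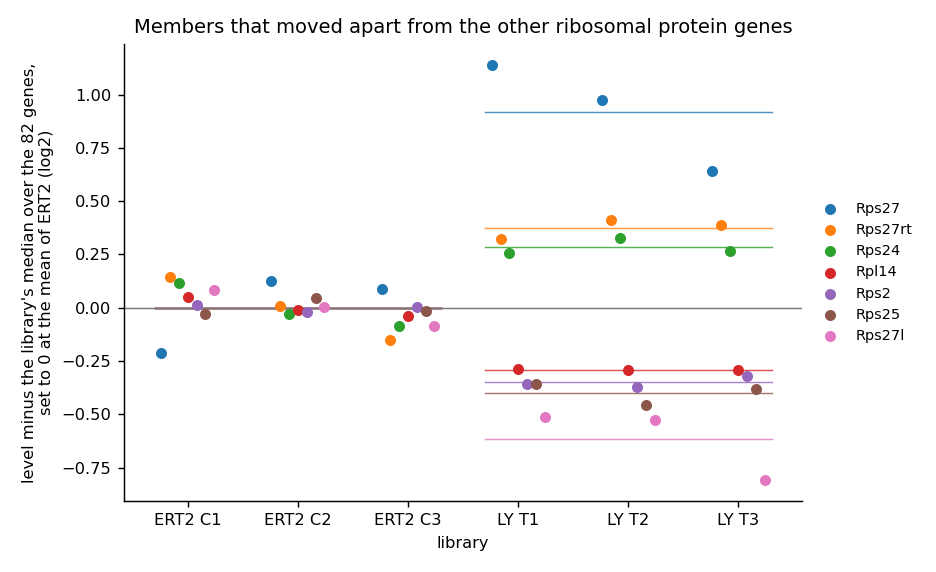
Level of the 7 genes that passed relative to the other ribosomal protein genes, in each library on the x axis, after subtraction of the library's median over the 82 genes and with each gene's ERT2 mean set to 0 (log2, y axis); lines are group means. Rps27, Rps27rt and Rps24 lie above 0 and the other 4 below 0 in each LY2090314 library, T3 included.

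Rps27 rose most while its paralog Rps27l fell most, so the coding sequences of the family are shown. The coding sequence of Rps27rt is identical to that of Rps27 over all 255 bases, and 241 of the 245 stretches of 101 bases (the read length) in the Rps27 transcript, 98.4%, also occur in the Rps27rt transcript. The 2 genes' own values therefore rest on few bases that tell them apart. Rps27l differs from Rps27 at 61 bases (76.1% identical), of which 53 are at the third base of a codon, and shares no stretch of 101 bases with it. The sequences are spliced coding sequences on GRCm38, 5′ to 3′; capitals in Rps27l mark bases that differ from Rps27.
Rps27 (chr3:90212725-90213615, minus strand, 4 exons) and Rps27rt (chr9:114982453-114982707, minus strand, 1 exon): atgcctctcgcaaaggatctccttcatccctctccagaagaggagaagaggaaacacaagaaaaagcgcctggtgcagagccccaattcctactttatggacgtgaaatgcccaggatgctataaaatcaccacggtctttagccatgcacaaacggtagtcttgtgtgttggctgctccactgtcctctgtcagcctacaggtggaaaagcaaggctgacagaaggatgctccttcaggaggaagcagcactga
Rps27l (chr9:66946175-66949357, plus strand, 4 exons): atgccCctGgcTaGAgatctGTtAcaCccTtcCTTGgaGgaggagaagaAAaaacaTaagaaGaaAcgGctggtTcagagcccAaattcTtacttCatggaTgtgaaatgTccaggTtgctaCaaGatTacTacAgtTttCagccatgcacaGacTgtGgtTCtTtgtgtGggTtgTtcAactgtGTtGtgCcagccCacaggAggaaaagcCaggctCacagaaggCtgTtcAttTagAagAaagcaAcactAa

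Because reads of Rps27 and Rps27rt can hardly be separated, their linear levels were also summed. The sum was 12.84, 12.85 and 12.86 (log2) in C1 to C3 and 13.33, 13.43 and 13.72 in T1 to T3, a rise of 0.64 ± 0.10 (SE, limma adjusted p = 0.00087). Rps27rt held 88.4% of the sum in the ERT2 and 84.1% in the LY2090314 group. The level assigned to the pair thus rose in all 3 libraries, while the level of Rps27l fell. Rps27l minus Rps27rt was −1.44 ± 0.06 (SD, n = 3) in the ERT2 and −2.43 ± 0.19 in the LY2090314 group, a change of −0.99 (two-sided exact permutation p = 0.1, the smallest that 3 against 3 samples allow). Rps27l minus Rps27 went from 1.51 ± 0.26 to −0.02 ± 0.11 (exact permutation p = 0.1).

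**Figure D4:**
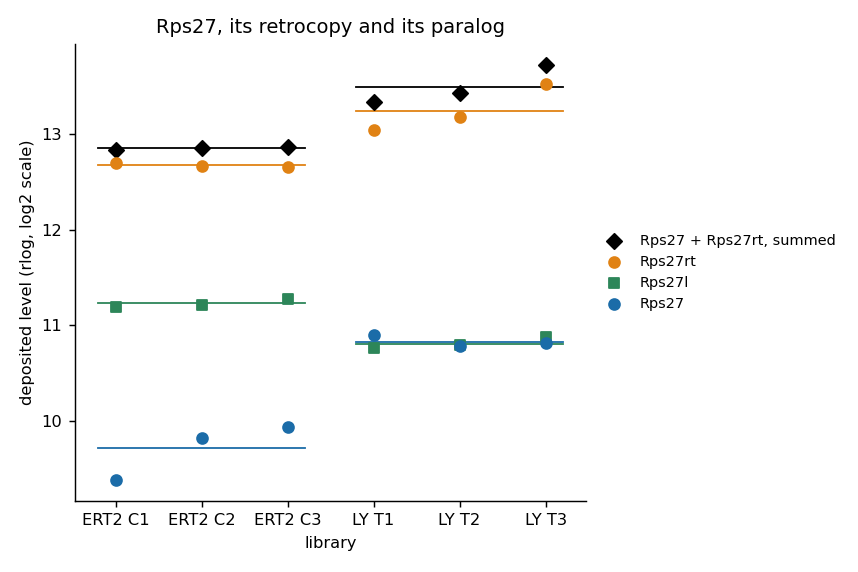
Deposited level (rlog, log2 scale, y axis) of Rps27, its intronless copy Rps27rt, their sum and the paralog Rps27l in each library (x axis), with lines at group means. The sum and both of its parts are higher in each LY2090314 library than in any ERT2 library, and Rps27l is lower.

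The other paralogs were set against their parents within each library, so that a shift carried by both genes cancels. Rpl7l1 minus Rpl7 was −4.09 ± 0.07 (log2, SD, n = 3) in the ERT2 and −4.54 ± 0.17 in the LY2090314 group; Rpl7 itself was at 15.07, 15.10 and 15.23 against 15.27, 15.31 and 15.64 (adjusted p = 0.0764). Rpl7l1 did not carry the shift of T3, so that of Rpl7 is part of this change. Rpl36al minus Rpl36a went from −0.76 ± 0.03 to −0.90 ± 0.03. In both pairs the groups did not overlap (exact permutation p = 0.1). Rpl36al was at 11.63, 11.68 and 11.81 against 11.58, 11.56 and 11.86, and Rpl36a at 12.41, 12.41 and 12.58 against 12.44, 12.46 and 12.79. Rpl22l1 minus Rpl22 was −1.12 ± 0.10 and −1.19 ± 0.03 (exact permutation p = 0.4), and Rpl37rt minus Rpl37 was −2.21 ± 0.06 and −2.19 ± 0.12 (exact permutation p = 0.9). For these last pairs a difference between groups was not detectable with 3 libraries each. Rpl37rt was at 10.35, 10.50 and 10.55 against 10.68, 10.54 and 10.86, and its parent Rpl37 at 12.58, 12.65 and 12.82 against 12.73, 12.78 and 13.13.

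The members just inside the limit of 8 on the mean were Rpl12 (10.26) and Rps27 (10.28), and the nearest outside it were Rps12 (7.04), Rps3a2 (6.18) and Rpl3l (4.62), so the limit fell in a gap. Rps12 was at 6.93, 6.77 and 6.90 in C1 to C3 and 7.16, 7.19 and 7.30 in T1 to T3, a difference of 0.35 (limma adjusted p = 0.0116). Of the sum with its copy Rps12-ps3, 97.4% was at the copy, and with all named copies added the family differed by 0.18 (adjusted p = 0.216). Rpl3l, which replaces Rpl3 in heart and skeletal muscle, was at 3.89, 4.04 and 3.92 against 5.41, 5.27 and 5.17, a difference of 1.33 (adjusted p = 1.83e-05). That rise was larger than that of Rps27, at a deposited level far below that of Rpl3 (Rpl3l minus Rpl3 was −11.66 ± 0.14 and −10.32 ± 0.35, SD, n = 3). Rps3a2 did not pass (adjusted p = 0.447). Of the 5 others, Rpl6l (2.93) and Rps3a3 (2.15) were too low to be tested, Rpl10l, Rps4l and Rps12l1 were listed at 0 in each library, and Rpl39l was at −2.28.

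Ribosomal protein genes have many near-identical copies in the genome, and for several members most of the level was assigned to such a locus. With all stretches of 101 bases compared between transcripts, 28 members shared at least 1 stretch with another locus of mean level 8 or more (31 loci in all). Rpl12, which binds at the base of the stalk, held little of its family's level. In the ERT2 group 96.2% of the sum of the 2 loci lay at Gm10275, and 99.8% of Gm10275's stretches occur in Rpl12. Rpl12 itself was at 9.99, 10.04 and 10.33 in C1 to C3 and 10.41, 10.38 and 10.43 in T1 to T3 (0.29 ± 0.09, adjusted p = 0.0263). The sum with Gm10275 was at 14.76, 14.82 and 14.94 against 14.91, 14.92 and 15.32, where T1 and T2 lie within the ERT2 range. Rpl5 was likewise at Gm15500 for 93.8% of its sum, and the sum was 0.20 higher in the LY2090314 group. The share at the other locus was 82.3% for Rpl37rt (at Rpl37), 71.7% for Rpl10a, 57.4% for Rpl10, 54.4% for Rpl27a, 53.1% for Rpl29 and 51.9% for Rps23. When 47 named copies were added to 28 parents, 5 families rose (Rpl17, Rpl31, Rps15a, Rps19 and Rps27) and none fell. In the fit without this summing, 24.8% of all genes passed as higher and 25.3% as lower. Which locus the reads came from was not tested, and the single-gene values of Rps27, Rps27rt, Rps12, Rpl12, Rpl5, Rpl37rt, Rpl10, Rpl10a, Rpl27a, Rpl29 and Rps23 are uncertain for this reason.

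Groups of ribosomal proteins with a role of their own were described by their counts. Of the P stalk, which recruits the elongation factors, none of 3 genes passed, where 50.1% of all genes did. Rplp0 was at 15.76, 15.82 and 15.99 in C1 to C3 and 15.97, 15.99 and 16.43 in T1 to T3 (0.27, adjusted p = 0.152), Rplp1 at 14.04, 14.11 and 14.21 against 14.14, 14.10 and 14.51 (0.12, adjusted p = 0.392), and Rplp2 at 13.45, 13.46 and 13.58 against 13.48, 13.57 and 13.92 (0.16, adjusted p = 0.261). In each of the 3 only T3 stood clear of the ERT2 libraries. The proteins of the 5S particle did not pass either: Rpl5 was at 11.15, 11.13 and 11.26 against 11.10, 11.21 and 11.46 (0.08, adjusted p = 0.515), and Rpl11 at 13.65, 13.80 and 13.91 against 13.75, 13.71 and 14.06 (0.05, adjusted p = 0.714).

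Of 5 ribosomal protein genes that are mutated in leukemia (Rpl5, Rpl10, Rpl11, Rpl22 and Rps15), none passed, where 50.1% of all genes did. Their differences ranged from 0.05 to 0.31. Rpl10, mutated in T cell leukemia, was at 13.68, 13.60 and 13.60 in C1 to C3 and 13.66, 13.91 and 14.23 in T1 to T3 (adjusted p = 0.0837). Rpl22, deleted in T cell leukemia, was at 12.67, 12.76 and 12.83 against 12.71, 12.77 and 13.12 (adjusted p = 0.417). Rps15, mutated in chronic lymphocytic leukemia, was at 13.97, 14.05 and 14.15 against 14.18, 14.22 and 14.53 (adjusted p = 0.0729), without overlap. Of 19 genes mutated in Diamond-Blackfan anemia, 7 rose (Rps15a, Rps19, Rps24, Rps27, Rps28, Rps29 and Rpl31) and none fell, where 24.8% of all genes passed as higher, with a median of 0.24 against 0.19 for all members. Of the 7 calls, only those of Rps24 and Rps27 held without C1.

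The rule does not take in ribosomal proteins with other names, such as Fau and Rack1. Fau, whose product is cleaved to release Rps30, was at 12.10, 12.33 and 12.50 in C1 to C3 and 12.57, 12.37 and 12.73 in T1 to T3 (adjusted p = 0.121). Rack1, the signaling scaffold on the small subunit, was at 15.06, 15.13 and 15.36 against 15.28, 15.26 and 15.69 (adjusted p = 0.197). Their differences were 0.25 and 0.23, neither of which passed, and T3 was the highest library of each.

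Between genes, levels were compared per kilobase of the main transcript (log2 of the level per kb). The highest were Rps2 (15.65), Rplp0 (15.55) and Rps4x (15.55), and the lowest Rpl7l1 (9.57), Rpl12 (9.95) and Rps25 (10.13). The quartiles were 13.19 and 14.82, and 65 members reached at least 13. The Rpl12 value excludes the level at Gm10275. Rps4x, the X-linked copy of Rps4, was at 15.37, 15.37 and 15.47 in C1 to C3 and 15.46, 15.51 and 15.90 in T1 to T3 on the deposited scale (adjusted p = 0.176). Across the 82 genes the difference had little relation to this level (Spearman 0.06), to transcript length (0.01) or to GC content (−0.17), as a description over genes from the same 6 libraries.

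The members share features that the rule did not use. Their main transcripts are short, with a median of 882 bases against 3024 for protein-coding genes tested, and a coding part of 453 against 1365 bases. A small nucleolar RNA gene lies within the bounds of 29 of them (35.4%) on the same strand, against 2.04% of all protein-coding genes tested. Rpl4, a large subunit protein at the exit tunnel, holds 5 such genes. Hosts and other members had median differences of 0.17 and 0.19. The median of 358 other genes with a main transcript under 1 kb was −0.15, −0.17 and −0.02 in T1, T2 and T3; T3 was the highest LY2090314 library for 299 of them, by a median of 0.161 over T1 and T2, and C3 the highest ERT2 library for 275. The part of transcript length in the shift of T3 was not tested. The 82 genes lie on 19 chromosomes, 14 of them on chromosome 7.

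**Figure D5:**
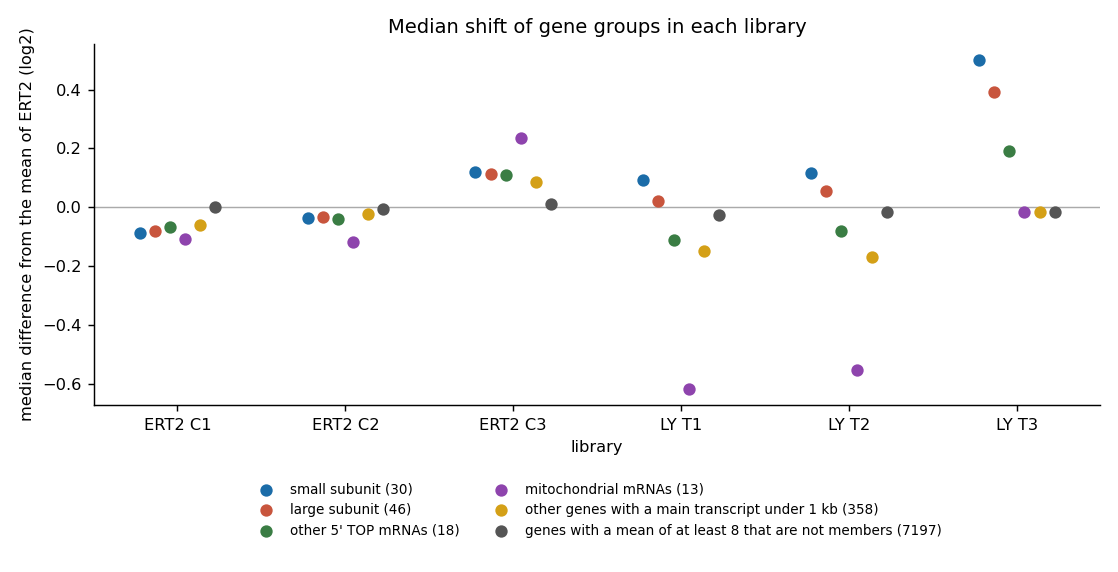
Median difference from the ERT2 mean (log2, y axis) for groups of genes in each library (x axis); the number of genes is in the legend. In T3 the small and large subunit lie at 0.50 and 0.39, further TOP mRNAs at 0.19 and the mitochondrial mRNAs, which are at −0.62 and −0.55 in T1 and T2, near 0.

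The start of transcription was read from RefSeq promoter regions (GRCm38.p6, 250 bases before to 50 after the start), which matched 61 of the 82 members. A C followed by at least 4 pyrimidines within 5 bases of the annotated start was found in 28 of the 61 (45.9%), against 19.8% of 8367 other genes tested. Members with such a run had a median difference of 0.22 (8 of 28 passed), and those without it 0.16 (4 of 33 passed). Of all genes tested, 50.1% passed. The RefSeq start lay 73 bases from the start of the main transcript for Rpl14, 47 for Rps2 and 575 for Rps25, and at most 3 for Rps27, Rps27rt and Rps27l; no match says only that the run is not in this window. For members that moved apart from the others and hold a run, the 30 bases around the start are shown, 15 on each side, with the pyrimidine run in capitals. Those without a run, Rps24 and Rps25, are not shown.
Rps27, chr3:90213634-90213663, minus strand: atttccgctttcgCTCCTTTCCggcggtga
Rps27rt, chr9:114982725-114982754, minus strand: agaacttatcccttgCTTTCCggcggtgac
Rps27l, chr9:66946071-66946100, plus strand: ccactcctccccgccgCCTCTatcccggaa
Rps2, chr17:24720048-24720077, plus strand: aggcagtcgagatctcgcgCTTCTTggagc
Rpl14, chr9:120571502-120571531, plus strand: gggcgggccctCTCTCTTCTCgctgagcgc

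Rps27 and Rps27rt both hold a run that ends in CTTTCC before the same bases. Genes with and without a rise carry a run in this window. Whether the run bears on the differences was not tested. Rps24, Rps25 and Rps28 hold none by this rule, but their RefSeq starts lay 35, 575 and 70 bases from the start of the main transcript. In the whole 300-base regions, on both strands, CCGGAAG (the ETS and GABP motif) was found in 39.3% of the 61 members and 20.8% of other genes, TATAA (TATA box) in 26.2 and 11.9%, AAGATGG (YY1) in 14.8 and 7.79%, and CACGTG (the E box that MYC binds) in 8.2 and 10.6%. CTTTGAT, a motif of TCF and LEF factors, was in none of the 61 and in 2.35% of other genes. Members with CCGGAAG had a median difference of 0.18 (3 of 24 passed), and those without it 0.22 (9 of 37 passed), against 50.1% of all genes.

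Further genes of the pathway were taken from fixed lists. Of 18 other mRNAs with a TOP tract, 2 rose and 3 fell, where 24.8% of all genes passed as higher and 25.3% as lower. Their median difference was 0.00 against 0.19 for the members. Eef1b2, an elongation factor subunit, rose by 0.42 ± 0.13 (adjusted p = 0.0274) and Tpt1, which encodes the translationally controlled tumor protein, by 0.37 ± 0.13 (adjusted p = 0.0427). Npm1, the nucleolar chaperone of ribosome assembly, fell from 15.33 ± 0.05 (SD, n = 3) to 14.73 ± 0.16 (adjusted p = 0.00113), and the elongation factor subunit Eef1d fell from 12.11 ± 0.13 to 11.54 ± 0.22 (adjusted p = 0.00422). The further TOP mRNAs therefore went in both directions.

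Of 13 regulators of TOP mRNAs, 2 rose and 4 fell, where 24.8% of all genes passed as higher and 25.3% as lower. Rps6kb1, the S6 kinase, went from 10.62 ± 0.03 to 11.53 ± 0.02 (0.92 ± 0.04, SE, adjusted p = 2.04e-06), and Mtor from 13.87 ± 0.04 to 14.55 ± 0.03 (adjusted p = 4.33e-05). Larp1, which holds TOP mRNAs back from translation and keeps them stable, went from 13.66 ± 0.01 to 13.05 ± 0.02 (adjusted p = 2.62e-05), and Cnbp, which binds TOP mRNAs, from 13.50 ± 0.03 to 12.94 ± 0.05 (adjusted p = 6.92e-05). In each of these 4 genes the SD of either group was at most 0.05, T3 included. Protein and phosphorylation were not measured here.

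Chaperones and importins that carry new ribosomal proteins to the nucleus included many that fell: 9 of 14 fell, where 25.3% of all genes passed as lower, and none rose, with a median difference of −0.32. Ipo4 fell from 10.05 ± 0.18 to 9.11 ± 0.13 (adjusted p = 0.000174), Ipo5 from 13.42 ± 0.06 to 12.75 ± 0.06 (adjusted p = 4.41e-05), Heatr3, which delivers Rpl5 and Rpl11, from 10.72 ± 0.01 to 10.06 ± 0.08 (adjusted p = 3.28e-05) and Grwd1 from 10.09 ± 0.07 to 9.58 ± 0.11 (adjusted p = 0.000665). Of 11 tested genes on a list of ribosome quality control factors plus Mdm2, 2 rose and 5 fell. Over all genes, 24.8% passed as higher and 25.3% as lower. Among them Usp10, which removes ubiquitin from stalled 40S subunits, changed by −0.61 ± 0.08 (adjusted p = 0.000509), and Mdm2, the target of free Rpl5 and Rpl11, by 0.52 ± 0.06 (adjusted p = 0.000299). Of 3 factors that bind idle ribosomes, Serbp1 (−0.52, adjusted p = 0.00535) and Ccdc124 (−0.21, adjusted p = 0.0185) fell. Of 5 tested factors that act at ribosomal protein promoters, Tbpl1 and Gabpb1 rose and Gabpa fell, by at most 0.28 on the log2 scale. For both lists the share of all genes that passed was 50.1%.

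The cells carried the markers of pre-B cells. All 13 pre-B markers were expressed, and 10 of them were lower and 2 higher after LY2090314, where 25.3% and 24.8% of all genes were. The log2 of their summed level was 16.41 to 16.44 in the ERT2 and 15.89 to 16.04 in the LY2090314 libraries. Defining markers of other cells were at or near 0: of 6 T cell markers 5 were at or below 0 and Trac at 1.84, and 5 of 6 erythroid and megakaryocyte, 4 of 4 stromal and 2 of 3 NK cell markers were at or below 0. The log2 sum of the 6 myeloid markers was 6.09 to 6.27 in the ERT2 and 7.40 to 7.46 in the LY2090314 libraries. The 2 that were tested both rose, Ly6g from 3.48 to 6.45 and Lyz2 by 0.53 (log2), where 24.8% of all genes passed as higher. Itgam was at 1.41 and Csf1r at 0.10 on average, and Elane and Mpo were at 0. The part of the myeloid markers' rise in the ribosomal protein values was not tested.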

How the data were processed

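RNA of the 2 groups was sequenced by the authors from stranded poly(A) libraries as 101-base paired-end reads. Per the paper's methods and the submitters' processing notes they quantified transcripts with Salmon, aligned with STAR to GRCm38 (GENCODE vM24) and used DESeq2 1.30.1; the strand setting, and which samples entered the transformation, are not given in the sources used here. The deposited values are rlog values on a log2 scale for 41444 genes. Of 12 columns, 6 were used; the other 6, whose names do not match the labels of 1 group, were not. The columns show the group of a sample and not which sample it is. Symbols and positions came from GENCODE vM21.

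Genes with a mean of at least 3 were fitted with limma 3.58.1 (R 4.3.3; group as the single factor, eBayes with trend, Benjamini-Hochberg, threshold 0.05). "Adjusted p" always means this fit over all 11536 genes. The relative fit subtracts each library's median over the 82 members first. On simulated data for this comparison, 64% of log2 changes of 0.5 and 90% of changes of 1 were recovered, with 4.35% false calls. The simulated noise was independent between genes, and 200 of 11536 genes were changed. A shift shared by many genes of a library, as in T3, was not simulated. The median SE was 0.114 for the members and 0.083 for all genes, so these rates may not hold for the members. Values by library were given for the largest changes in either fit, paralogs, P stalk, 5S and leukemia-mutated genes, extremes of level, and genes near the limit. Leave-one-out fits, other scalings, filters and variance models were tried. The members and lists were chosen with earlier results of these data known.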

Additional observations from a re-analysis of the deposited data

How the results depend on the processing

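The median difference of the members ranged from −0.01 (each library centred on the members, by construction) to 0.26, and no alternative reversed the 7 genes with the largest changes or the 7 called relative to the members. Centring on the members turns the sign of every member whose difference is positive and below the shift, such as Rpl5, Rpl11, Rplp1 and Rplp2. The number of members past the threshold was 16. It was 38 (36 higher, 2 lower) after quantile normalization, 39 (37 and 2) after correction for transcript length and GC content, 9 with libraries centred on the median of all genes, 7 (3 and 4) when centred on the members, 6 with no lower limit on the mean, 5 at an adjusted p under 0.01, 2 with a log2 difference of at least 0.5 and 1 with at least 1. Leaving out 1 library gave 5 to 20, the lowest without C1 and the highest without T3; the cause was not tested. The count over all genes was 3464 when centred on the members, 2388 at 0.5 and 693 at 1, against 5778. The count of 7 relative to the members' own median was 2 without the mean-variance trend, 17 after length and GC correction, 3 with T1 and T2 averaged, 3 at an adjusted p under 0.01 and 3 to 8 without 1 library. Estimating each gene's variance alone, chosen after seeing the data as were the summing of copies and all alternatives of the relative count, gave 5 and 16. No paired analysis was possible because the columns carry no replicate number that matches the labels. rlog values carry no depth, and 3 libraries a group limit what could be detected.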
